A study of Drosophila melanogaster with 30 samples.

Results

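The genes described here are 8 components of the mitotic spindle in Drosophila: the kinesin motor genes Klp61F, Klp67A, ncd, Klp10A, Klp3A, nod and cmet, and msps, which encodes a microtubule polymerase. They were taken from a list of names and read through the probe set that the array annotation gives to that gene alone. Of the 8 genes, 7 had such a probe set, 1 each, among 10843 genes in all. Klp3A, a chromosome-bound kinesin that also works at the central spindle, had none and was not analysed here. The signal of cmet was too low for the filter on dim probe sets, so 6 genes were tested. In the RefSeq table of the Release 6 assembly Klp61F and Klp67A lie on chromosome arm 3L, ncd and msps on 3R, cmet on 2L, and Klp10A, Klp3A and nod on X.

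A spindle is built from microtubules whose ends grow and shrink, and motors sort and move them. Plus-end-directed kinesins push the poles apart, minus-end-directed kinesins draw ends together at the poles, other kinesins take tubulin off microtubule ends, and polymerases add it. Genes of mitosis are known targets of cell cycle regulators, among them E2F and the Myb-MuvB or dREAM complex. E2F1 is known as an activator of transcription, and E2F2 as a repressor that acts with RBF proteins. Mip40, Mip120, Mip130 and Lin-52 are known as subunits of the MuvB core, which joins E2F2, RBF proteins and Myb.

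RNA was measured in Kc cells, a tetraploid female Drosophila line derived from embryos, on 30 Affymetrix arrays in 10 groups of 3. The control group received double-stranded RNA from plasmid sequence with no fly target, named SK+. The other groups had 4 days of RNA interference (RNAi) against E2F1, E2F2, RBF1 together with RBF2 (called RBFs), Myb, Lin-52, Mip40, Mip120, Mip130 or L(3)MBT, a protein that copurifies with the complex. Whether the 3 arrays of a group stand for separate cultures is not stated in the labels, so p-values measure the spread between these samples, which may be technical.

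Values are log2 signals, and each array's median over all probe sets lay between 6.44 and 6.58. In control cells, 23 probe sets for sequences that flies lack averaged between 3.16 and 6.22. All 8 RNAi targets that could be tested were lower in their own knockdown, at 19.3 to 78.1% of the control signal. The knockdown means of mip130 (5.78) and lin-52 (5.99) lay within that background range, and those of E2f2 (6.32) and l(3)mbt (6.37) just above it. These shares are therefore not read as the transcript left, and the arrays do not measure protein. No probe set was assigned to Myb and that of Rbf was too dim. Of 12 hemocyte (blood cell) markers 7, including Hml, Pxn and srp, were above the array median on every control array. The others, NimC1, eater, crq, Sr-CI and PPO1, had control means of 3.38 to 5.42, in the background range. Among the neuronal, muscle and germ line markers 1 of 4, 1 of 3 and 1 of 5 were above the array median. So were 3 of 4 fat body and 1 of 3 gut markers. The summed log2 signal of the hemocyte markers ran from 80.0 to 90.3 between groups (87.8 in control). Within it markers moved in opposite directions after E2F1 knockdown, Pxn from 9.96 to 7.34, eater from 5.41 to 7.45 and crq from 4.78 to 6.67. The part of these markers in the results was not tested.

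After E2F1 knockdown 4 of the 6 tested genes fell, Klp61F, Klp67A, ncd and nod, and 0 rose, where 31.3% of all tested probe sets fell and 22.9% rose. After Myb knockdown 5 fell (all but ncd) and 0 rose, against 3.43% and 2.36% of all probe sets. Knockdown of MuvB core subunits gave 3 falls for Mip40 (background 8.92%), 4 for Mip120 (10.5%), 4 for Mip130 (5.98%) and 4 for Lin-52 (10.7%). None of these 4 knockdowns gave a rise, where 6.99%, 8.67%, 5.02% and 8.74% of all probe sets rose. After E2F2 knockdown ncd fell and Klp10A and msps rose (9.12% and 16.4% of all probe sets fell and rose), and after RBFs knockdown Klp61F fell and msps rose (11.9% and 11.5%). After L(3)MBT knockdown 0 fell and 3 rose, Klp67A, Klp10A and msps, where 34.6% of all probe sets fell and 38.9% rose, so 3 of 6 is near that background.

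A call here is an adjusted p below 0.05 in limma, with Benjamini-Hochberg adjustment over 7794 probe sets. The median change of the 6 genes was -0.64 after E2F1 and -0.40 after Myb knockdown, against -0.05 and 0.01 over all tested probe sets. It was -0.18, -0.26, -0.28 and -0.35 after Mip40, Mip120, Mip130 and Lin-52 knockdown, and 0.10, -0.03 and 0.13 after E2F2, RBFs and L(3)MBT knockdown, with -0.01 to 0.02 over all probe sets. At an unadjusted p below 0.05, too, 0 of the 6 rose after E2F1, Myb or any MuvB knockdown and 0 fell after that of L(3)MBT. All 9 comparisons share the same 3 control arrays. The samples are bulk RNA, so fewer cells in mitosis and less RNA per cell cannot be told apart.

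**Figure D1:**
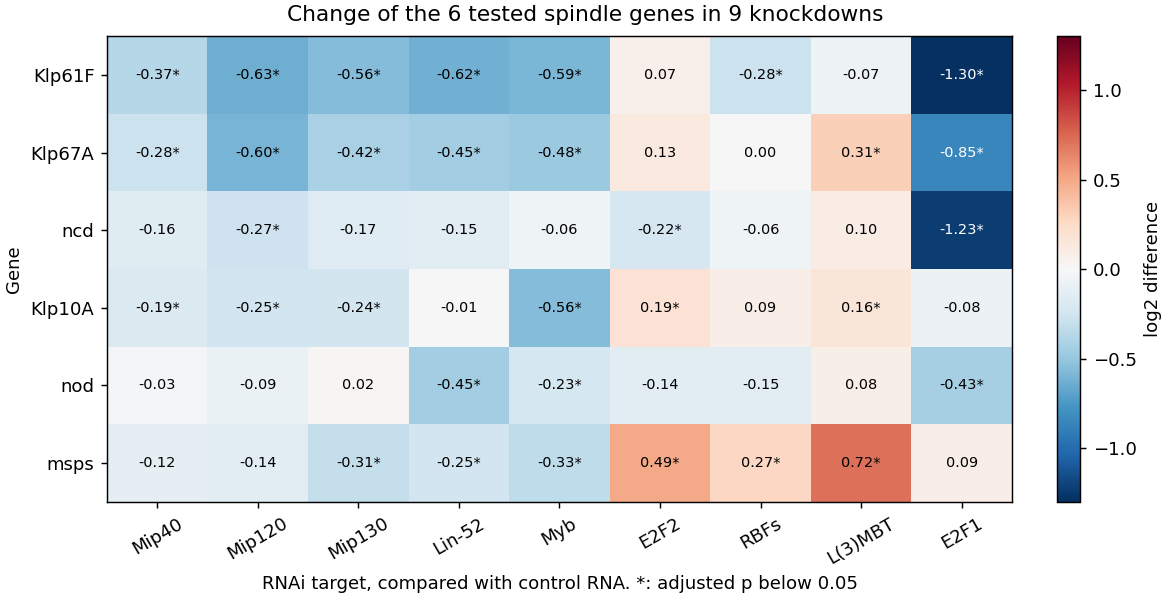
Log2 difference between each knockdown (columns, means of 3 arrays) and control for the 6 tested genes (rows); colour and number give the difference, and an asterisk marks an adjusted p below 0.05. The E2F1 column holds the largest falls, -1.30 for Klp61F and -1.23 for ncd, while msps is the gene with the largest rises, 0.72 after L(3)MBT and 0.49 after E2F2 knockdown.

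Klp61F encodes the bipolar motor that crosslinks and slides antiparallel microtubules and keeps the spindle poles apart. Its signals were 9.67, 9.77 and 9.50 in control and 8.29, 8.42 and 8.33 after E2F1 knockdown, a difference of -1.30 (SE 0.0617), or 40.6% of the control level (adjusted p = 2.88e-17). The E2F1 arrays were below all 27 others. The arrays of the MuvB and Myb knockdowns lay between those of E2F1 knockdown and control. They read 8.92, 9.07 and 9.07 for Mip120, 9.14, 8.97 and 8.99 for Lin-52, and 9.09, 9.08 and 9.0 for Myb. Mip130 gave 9.09, 9.10 and 9.08, and Mip40 9.31, 9.24 and 9.28. All 15 of these arrays were below the control arrays, and the arrays of Mip130, Myb, Lin-52 and Mip120 overlapped from each to the next in order of their means. The Mip40 arrays lay above those groups and overlapped the RBFs arrays. The differences were -0.63 for Mip120, -0.62 for Lin-52, -0.59 for Myb, -0.56 for Mip130 and -0.37 for Mip40, to 64.8, 65.3, 66.5, 67.9 and 77.5% of control (adjusted p 3.38e-09 to 5.15e-05).

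After RBFs knockdown Klp61F signals were 9.42, 9.39 and 9.30, a difference of -0.28 (adjusted p = 0.0012) to 82.6% of control. After E2F2 knockdown they were 9.65, 9.71 and 9.79, which overlapped control (a difference of 0.07, adjusted p = 0.428, and -0.04 with quantile normalization). The L(3)MBT arrays read 9.58, 9.55 and 9.61 (-0.07, adjusted p = 0.322). That difference was called without control replicate 3 (-0.14, adjusted p = 0.0469) and after quantile (-0.36, adjusted p = 9.39e-07) or cyclic loess normalization (-0.27, adjusted p = 2.72e-05), with adjusted p up to 0.923 over the alternatives, and it was 0.03 with median centring. On the L(3)MBT arrays 783 probe sets within 0.5 of the mean signal of Klp61F had a median difference of 0.21.

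**Figure D2:**
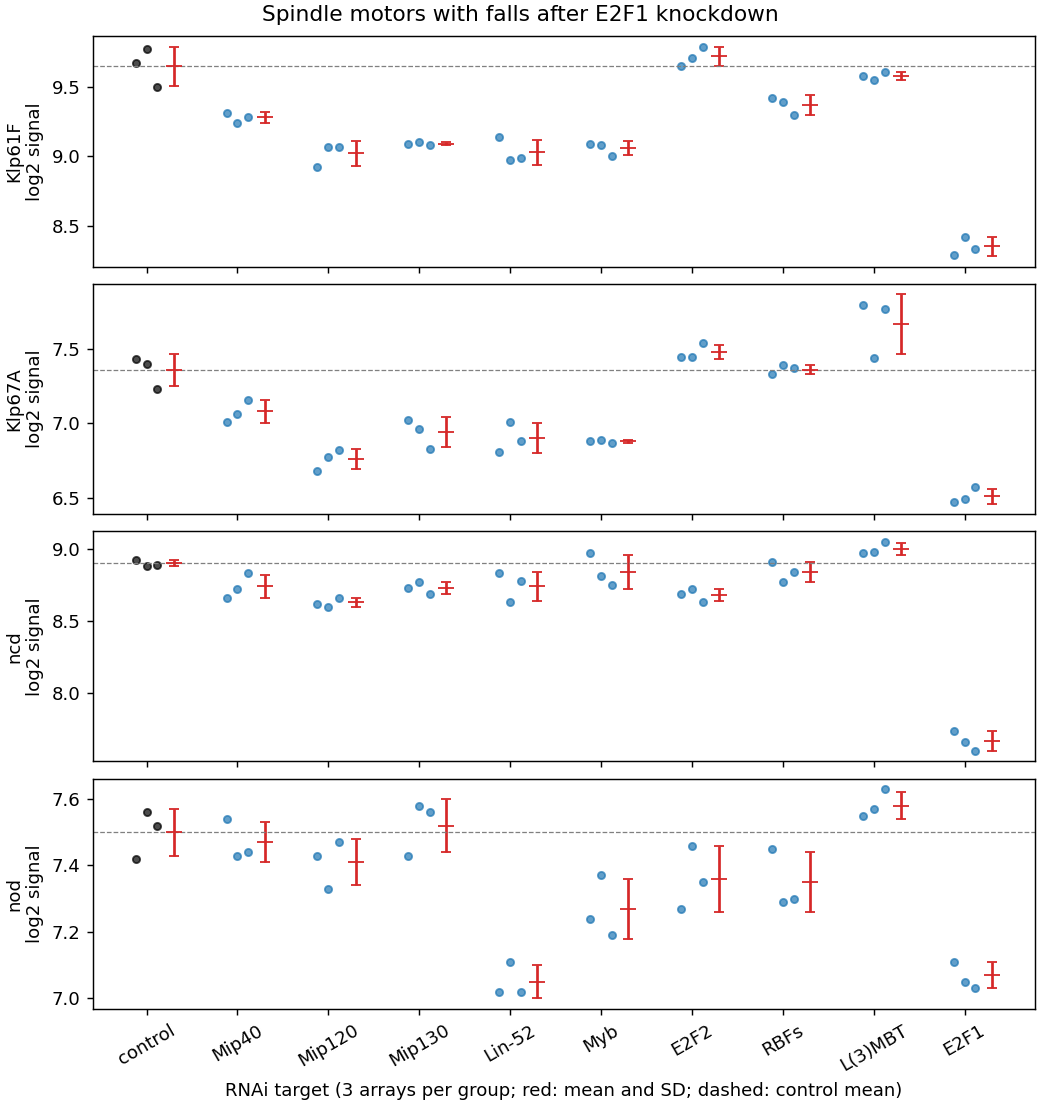
Log2 signal (vertical axes, a separate scale for each gene) of Klp61F, Klp67A, ncd and nod on each of the 3 arrays (points, control in black) of the 10 groups (horizontal axis), with the group mean and SD in red and the control mean dashed. Klp61F and Klp67A sit below control in the Mip40, Mip120, Mip130, Lin-52 and Myb groups, as does Klp61F in the RBFs group. Both are lowest in the E2F1 group, where ncd also stands below every other group.

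Klp67A encodes a motor that walks to plus ends and limits the length of spindle microtubules. Control arrays read 7.43, 7.40 and 7.23, and E2F1 arrays 6.47, 6.49 and 6.57, a difference of -0.85 (SE 0.0742) to 55.6% of control (adjusted p = 3.92e-11). Mip120 arrays read 6.68, 6.77 and 6.82, a difference of -0.60 to 66.1% (adjusted p = 3.61e-07). Klp67A also fell in the other MuvB knockdowns and after that of Myb. Myb arrays (6.88, 6.89 and 6.87) and Lin-52 arrays (6.81, 7.01 and 6.88) gave differences of -0.48 and -0.45, and Mip130 arrays (7.02, 6.96 and 6.83) of -0.42, with adjusted p from 3.16e-05 to 0.000132. Mip40 arrays (7.01, 7.06 and 7.16) gave a difference of -0.28, to 82.4% (adjusted p = 0.00798). All of these arrays lay below the lowest control array. The Mip40 call ended without control replicate 1 (adjusted p = 0.0582) or Mip40 replicate 1 (0.0529), and adjusted p spanned 5.47e-05 to 0.0582 over the alternatives.

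In no other group was a fall of Klp67A called. RBFs arrays were at 7.33, 7.39 and 7.37 and E2F2 arrays at 7.45, 7.45 and 7.54, with differences of 0.00 (adjusted p = 0.986) and 0.13 (adjusted p = 0.219). L(3)MBT arrays were at 7.80, 7.44 and 7.77, above all control arrays, a rise by 0.31 (adjusted p = 0.000422). One L(3)MBT array lay close to control, and the SD of 0.20 in that group is wider than the median SD of 0.07 over the 7 genes and 10 groups. On these arrays 3340 probe sets near the signal of Klp67A had a median difference of -0.09, and its rise stayed called with each of the 3 normalizations (0.26 to 0.41).

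The gene ncd encodes a minus-end-directed motor that bundles microtubules and focuses poles, best known from the meiotic spindle of the oocyte. Its control signals were 8.92, 8.88 and 8.89, and after E2F1 knockdown they were 7.74, 7.66 and 7.60. The difference of -1.23 (SE 0.0606), 42.7% of control, had an adjusted p of 6.99e-17, and the E2F1 arrays lay apart from all 27 others. Outside that group the means ran only from 8.63 to 9.0. Mip120 arrays (8.62, 8.60 and 8.66) and E2F2 arrays (8.69, 8.72 and 8.63) were below every control array, with differences of -0.27 (adjusted p = 0.00159) and -0.22 (adjusted p = 0.00814). Myb arrays (8.97, 8.81 and 8.75) overlapped control, with a difference of -0.06 (95% interval of the fit -0.18 to 0.07, adjusted p = 0.809).

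For the other MuvB subunits the differences of ncd were small and not called. They were -0.17 for Mip130 (8.73, 8.77 and 8.69), -0.16 for Mip40 (8.66, 8.72 and 8.83) and -0.15 for Lin-52 (8.83, 8.63 and 8.78), with adjusted p from 0.0705 to 0.0737. Those of Mip40 and Lin-52 were called without Mip40 replicate 3 (adjusted p = 0.0334; range 0.0101 to 0.282) and without Lin-52 replicate 1 (0.0305; range 0.0147 to 0.383). All 3 were called with array weights, that of Mip130 at an adjusted p of 0.0122 (range 0.0122 to 0.221), and in each the knockdown arrays lay below the control arrays. RBFs arrays (8.91, 8.77 and 8.84) and L(3)MBT arrays (8.97, 8.98 and 9.05) differed by -0.06 (adjusted p = 0.589) and 0.10 (adjusted p = 0.138). The L(3)MBT difference turned to -0.11 with quantile and -0.05 with cyclic loess normalization and was called with median centring (0.20, adjusted p = 0.00604).

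The motor protein of nod binds chromosome arms and pushes chromosomes without crossovers toward the spindle equator in oocytes. Control arrays read 7.42, 7.56 and 7.52. The lowest signals were those after Lin-52 knockdown, 7.02, 7.11 and 7.02, and after E2F1 knockdown, 7.11, 7.05 and 7.03, and these groups overlapped each other. The differences were -0.45 (SE 0.0616, adjusted p = 1.89e-06) and -0.43 (adjusted p = 4.93e-07), to 73.2 and 74.0% of control. Myb arrays, at 7.24, 7.37 and 7.19, were also below all control arrays, a difference of -0.23 (adjusted p = 0.0162). This call ended without control replicate 2 (adjusted p = 0.109) or 3 (0.0544), without Myb replicate 1 (0.0683) or 3 (0.0962), and with the 6 arrays alone (0.154), over a range of 0.00718 to 0.154.

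In the remaining MuvB knockdowns no change of nod was called. Mip130 arrays read 7.43, 7.58 and 7.56, Mip120 arrays 7.43, 7.33 and 7.47, and Mip40 arrays 7.54, 7.43 and 7.44, with differences of 0.02, -0.09 and -0.03 (adjusted p 0.366 to 0.884). For E2F2 (7.27, 7.46 and 7.35) and RBFs (7.45, 7.29 and 7.30) the differences were -0.14 (adjusted p = 0.0899) and -0.15 (adjusted p = 0.0751). They were called without E2F2 replicate 2 (0.0429; range 0.0272 to 0.343) and without RBFs replicate 1 (0.0293; range 0.0293 to 0.269). L(3)MBT arrays (7.55, 7.57 and 7.63) differed by 0.08 (adjusted p = 0.214), and by 0.19 with median centring (adjusted p = 0.0108).

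Klp10A encodes a kinesin that does not walk but takes tubulin off microtubule ends, at the poles in particular. Its largest difference was in the Myb knockdown and not in that of E2F1. Signals were 8.27, 8.28 and 8.19 in control and 7.68, 7.58 and 7.79 after Myb knockdown, a difference of -0.56 (SE 0.0594) to 67.6% of control (adjusted p = 2.96e-08). The Myb arrays were below all 27 others. Mip120 arrays (8.01, 8.0 and 7.98) and Mip130 arrays (7.99, 8.01 and 8.0) were nearly alike and below control, with differences of -0.25 and -0.24 (adjusted p = 0.00296 and 0.00532). Mip40 arrays (8.02, 8.04 and 8.12) gave a difference of -0.19 (adjusted p = 0.0287), whose call ended without control replicate 1 or 2, without Mip40 replicate 1 or 2, with cyclic loess normalization and with the 6 arrays alone (adjusted p 0.0512 to 0.118; range 0.000517 to 0.118).

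Lin-52 arrays were at 8.08, 8.30 and 8.34, spanning the control arrays, with a difference of -0.01 (95% interval -0.13 to 0.11, adjusted p = 0.956). E2F1 arrays, at 8.17, 8.16 and 8.18, were just below the lowest control array, with a difference of -0.08 (adjusted p = 0.277). E2F2 arrays (8.37, 8.43 and 8.51) and L(3)MBT arrays (8.47, 8.37 and 8.39) were above all control arrays, rises by 0.19 (adjusted p = 0.0187) and 0.16 (adjusted p = 0.0143). The E2F2 call ended with quantile normalization (0.108) and without control replicate 3 (0.0888) or E2F2 replicate 3 (0.108), over a range of 0.0045 to 0.108. The L(3)MBT call ended with cyclic loess (0.251) or quantile normalization, which turned the sign (-0.01, adjusted p = 0.92), and without control replicate 3 (0.0708) or L(3)MBT replicate 1 (0.0667; range 0.000211 to 0.92). RBFs arrays (8.33, 8.39 and 8.29) differed by 0.09 (adjusted p = 0.307).

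Unlike the motors, msps encodes a protein that adds tubulin to microtubule plus ends and works at centrosomes. It rose after E2F2, RBFs and L(3)MBT knockdown. Control arrays read 8.64, 8.70 and 8.53, E2F2 arrays 9.11, 9.04 and 9.20, RBFs arrays 9.08, 8.89 and 8.72, and L(3)MBT arrays 9.41, 9.32 and 9.30. All 9 of these arrays were above the control arrays. The rises were 0.49 (SE 0.0839, adjusted p = 6.95e-05), 0.27 (adjusted p = 0.0166) and 0.72 (adjusted p = 1.11e-08), to 141, 121 and 165% of control. The L(3)MBT rise was 0.47 after quantile and 0.57 after cyclic loess normalization and stayed called (adjusted p = 4.99e-06 and 3.78e-07, the first being the highest over the alternatives), while 1312 probe sets of like signal had a median difference of 0.16 there. The RBFs call ended without control replicate 3 (adjusted p = 0.075) or RBFs replicate 1 (0.153; range 0.00378 to 0.153).

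Lower msps signals were found after Myb (8.10, 8.35 and 8.42), Mip130 (8.34, 8.23 and 8.35) and Lin-52 knockdown (8.51, 8.38 and 8.23). The differences were -0.33 (adjusted p = 0.0123), -0.31 (adjusted p = 0.0113) and -0.25 (adjusted p = 0.0335), to 79.6, 80.4 and 84.1% of control, and none of the arrays reached the lowest control array. The Myb call ended without control replicate 2 (0.0806), without Myb replicate 1 (0.152) and with the 6 arrays alone (0.118; range 1.54e-05 to 0.152), and the Mip130 call without control replicate 2 (0.0745) or Mip130 replicate 2 (0.0671; range 0.000265 to 0.0745). The Lin-52 call ended without control replicate 1 or 2, without Lin-52 replicate 2 or 3, with median centring, cyclic loess normalization or the 6 arrays alone (0.0507 to 0.195; range 0.00169 to 0.195). Mip40 arrays (8.47, 8.45 and 8.58), Mip120 arrays (8.52, 8.36 and 8.57) and E2F1 arrays (8.64, 8.81 and 8.69) overlapped control, with differences of -0.12, -0.14 and 0.09 (adjusted p 0.294 to 0.384).

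**Figure D3:**
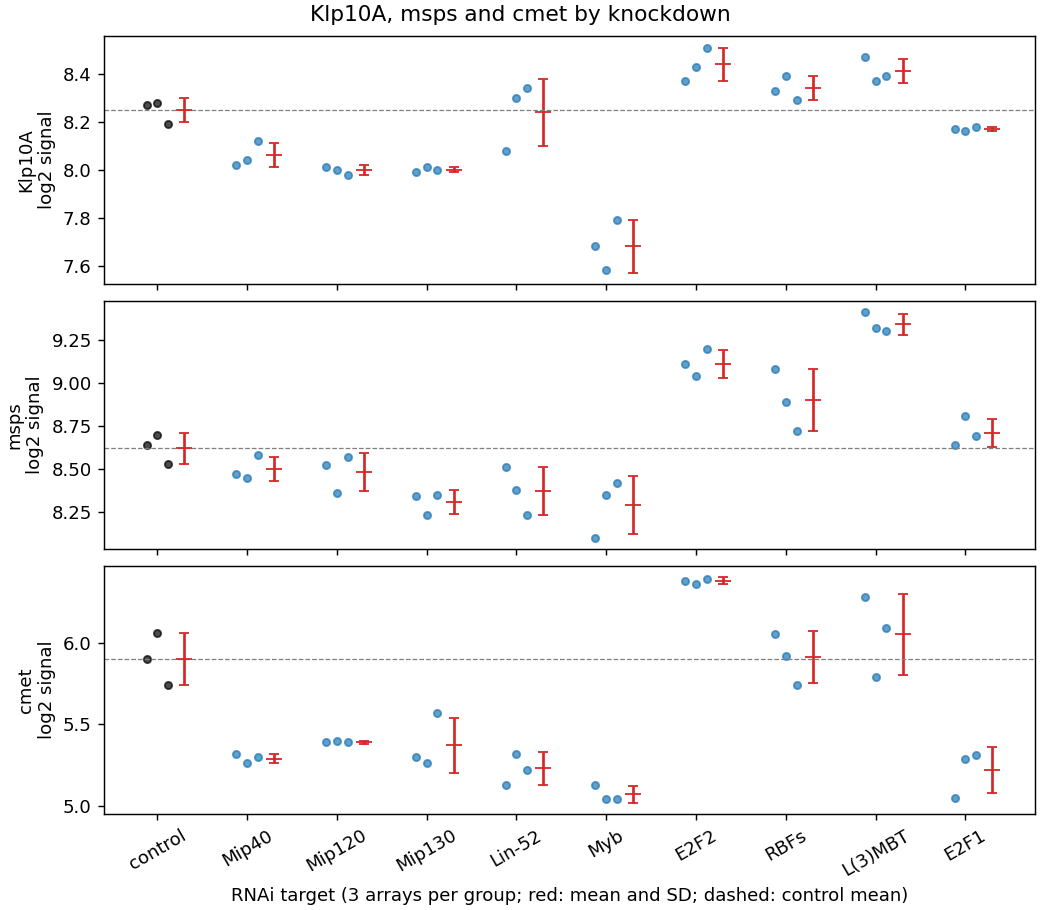
Log2 signal (vertical axes, a separate scale for each gene) of Klp10A, msps and cmet on each of the 3 arrays (points, control in black) of the 10 groups, with the group mean and SD in red and the control mean dashed. Klp10A is lowest in the Myb group and near control in the E2F1 group, and msps and cmet are above control in the E2F2 group.

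The gene cmet encodes a long kinetochore motor, a relative of vertebrate CENP-E that moves chromosomes to the spindle equator. Its control signals of 5.90, 6.06 and 5.74 lay within the range of probe sets for sequences that flies lack, and it did not pass the filter, so it has no call here. Signals were 5.13, 5.04 and 5.04 after Myb, 5.13, 5.32 and 5.22 after Lin-52, 5.32, 5.26 and 5.30 after Mip40, and 5.05, 5.29 and 5.31 after E2F1 knockdown. Mip130 arrays read 5.30, 5.26 and 5.57, and Mip120 arrays 5.39, 5.40 and 5.39. All 18 of these arrays were below the control arrays. E2F2 arrays, at 6.38, 6.36 and 6.39, were above control, whereas RBFs (6.05, 5.92 and 5.74) and L(3)MBT arrays (6.28, 5.79 and 6.09) overlapped it. In the fit with no filter, an alternative, the differences were -0.83 for Myb (adjusted p = 1.48e-07), -0.68 for Lin-52 and for E2F1, -0.61 for Mip40, -0.53 for Mip130, -0.51 for Mip120 and 0.48 for E2F2 (adjusted p = 0.000675). Only the E2F2 group had a mean above the range of probe sets for sequences that flies lack, so these differences are not read as folds of the transcript.

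Direct contrasts tested where knockdowns differ from each other. Between E2F2 and E2F1 knockdown all 6 genes were higher in the E2F2 group and 0 lower, where 31.2% and 21.8% of all probe sets were higher and lower. The differences were 1.37 for Klp61F, 1.01 for ncd, 0.97 for Klp67A, 0.40 for msps, 0.29 for nod and 0.27 for Klp10A (adjusted p 7.17e-18 to 0.000338). Myb against E2F2 knockdown had 4 genes lower (18.5% of all probe sets), msps by -0.82, Klp10A by -0.75, Klp61F by -0.66 and Klp67A by -0.60, with adjusted p from 1.76e-11 to 1.66e-07. It had 1 gene higher (13.9%), ncd by 0.16 (adjusted p = 0.038). That call ended without Myb replicate 1 (0.263) or E2F2 replicate 1 (0.0736) or 3 (0.14), and with median centring or the 6 arrays alone (0.0935 and 0.0938).

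Myb and Mip130 knockdown differed in 2 genes, both lower after Myb (5.71% of all probe sets lower, 6.74% higher). They were Klp10A, by -0.32 (95% interval -0.44 to -0.20, adjusted p = 0.000213), and nod, by -0.26 (adjusted p = 0.00374). For Klp61F and Klp67A the differences between these groups were -0.03 (95% interval -0.16 to 0.10) and -0.06 (95% interval -0.21 to 0.09), not called. Lin-52 against Myb knockdown separated the same pair of genes. Klp10A was higher after Lin-52 knockdown by 0.56 (adjusted p = 3.14e-08; 7.72% of all probe sets higher), and nod was lower by -0.22 (adjusted p = 0.0132; 9.44% lower). The nod call ended without Myb replicate 2 (0.107) or Lin-52 replicate 3 (0.05), and with the 6 arrays alone (0.109). With array weights in limma ncd was called too in both contrasts. It was higher after Myb than after Mip130 knockdown by 0.19 (adjusted p = 0.00501). For Lin-52 against Myb knockdown its difference was -0.21 (adjusted p = 0.00738).

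Of pairs within the MuvB core, Mip120 and Mip40 were each set against Mip130. Mip120 against Mip130 knockdown had 0 calls among the 6 genes in limma, where 1.01% of all probe sets were lower and 1.33% higher. At an unadjusted p below 0.05 there were 2, Klp67A by -0.18 (95% interval -0.33 to -0.03) and msps by 0.18 (95% interval 0.01 to 0.35), and 2 with array weights, Klp67A (adjusted p = 0.0465) and nod (0.0446). Mip40 against Mip130 knockdown had Klp61F higher by 0.19 (adjusted p = 0.045; 5.03% of all probe sets higher, 5.16% lower). The call ended on leaving out any of the 6 arrays (adjusted p 0.0677 to 0.156), with the replicate block (0.052), and in 3 other settings.

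RBFs against E2F2 knockdown had Klp61F lower by -0.35 (adjusted p = 0.000104; 15.4% of all probe sets lower). In it ncd was higher by 0.16 (adjusted p = 0.0485; 9.49% higher), a call that ended on leaving out any E2F2 array or RBFs replicate 1 or 3 (adjusted p 0.0609 to 0.176), and with median centring (0.134), no filter (0.0642) or no L(3)MBT arrays (0.0506). In this contrast msps differed by -0.22 (adjusted p = 0.0538), which was called in 5 settings, among them RBFs replicate 1 left out (-0.31, adjusted p = 0.0106). L(3)MBT against E2F2 knockdown had 4 genes higher and 0 lower, where 34.1% of all probe sets were higher and 31.4% lower. They were ncd by 0.32, msps and nod by 0.23 each, and Klp67A by 0.19 (adjusted p 3.94e-05 to 0.0268). Klp61F was lower by -0.14 at an unadjusted p below 0.05 (adjusted p = 0.0505), and quantile normalization gave it -0.32 (adjusted p = 8.52e-06). The msps difference was 0.04 after quantile (adjusted p = 0.691) and 0.11 after cyclic loess normalization (0.242), and the Klp67A call ended with quantile normalization (0.065) and the 6 arrays alone (0.0673). Calls of msps and Klp67A also ended without E2F2 replicate 2 (0.0786 and 0.0771) or L(3)MBT replicate 1 (0.0756 and 0.182), and that of Klp67A without E2F2 replicate 1 (0.0778) or L(3)MBT replicate 3 (0.147).

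Among the members, the 10 group means of Klp61F and Klp67A followed each other most closely (Pearson r = 0.93), as a description of 10 means that share arrays and normalization. Next came Klp67A with cmet (r = 0.86). Values for cmet are limited, since it was too dim for the filter and only its E2F2 mean lay above the background range. The group means of Klp61F and ncd had r = 0.80, those of cmet and msps 0.83, and those of Klp10A with msps and with cmet 0.80 each. By contrast ncd had r = 0.053 with Klp10A and 0.083 with msps. The most similar genes outside the list, by the same measure, were Spc105R, a kinetochore scaffold (r = 0.979), the checkpoint gene Bub3 (0.962) and the nuclear envelope gene Ote (0.949) for Klp61F. For Klp67A they were CG5498 (0.99), CG8173 (0.976) and the anillin gene scra (0.974). For ncd they were Pop4 (0.987), the replicative helicase gene Mcm3 (0.986) and CG13690 (0.984), and for msps CDK2AP1 (0.974), RpS27A (0.97) and tgo (0.969). Those of nod were CG4820 (0.935), CG4598 (0.924) and CLS (0.924), whose group means ran only from 7.17 to 7.37, 8.72 to 9.04 and 7.68 to 7.93. The means of RpS27A ran from 12.05 to 12.39, and those of Spc105R from 5.74 to 6.63, partly in the background range. A high r thus does not mean a change of like size. Klp10A had the lowest likeness, with Keap1 (0.895), Naxd (0.894) and sip2 (0.887).

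Other spindle genes were read from lists of names, of which 5 other kinesin genes, 16 dynein and dynactin genes and 15 genes of spindle microtubule-associated proteins were tested. Among the other kinesins limma called 0 after Mip40, Mip120, Mip130, Lin-52, Myb or RBFs knockdown. In these knockdowns 3.43 to 11.9% of all probe sets fell and 2.36 to 11.5% rose, so 0 of 5 is near that background. At an unadjusted p below 0.05 there were 1 lower and 1 higher after Mip40 and 0 in the other 5. After E2F2 knockdown 0 fell and 1 rose (9.12% and 16.4% of all probe sets), and after L(3)MBT knockdown 1 fell and 4 rose (34.6% and 38.9%). After E2F1 knockdown 2 fell and 1 rose, near the 31.3% and 22.9% of all probe sets. Neb, a kinesin of cytokinesis, fell by 0.78 (adjusted p = 1.73e-11) and Kif19A fell by 0.32 (adjusted p = 0.00133), while the kinesin light chain gene Klc rose by 0.60 (adjusted p = 1.81e-06). The dynein and dynactin list had 1 fall and 4 rises after E2F1 knockdown. After Myb knockdown it had 0 calls (1 lower and 1 higher at an unadjusted p below 0.05), where 3.43% of all probe sets fell and 2.36% rose. The 4 rises of 16 are near the 22.9% of all probe sets that rose after E2F1 knockdown. Its light chain gene robl fell by 0.61 after Mip40 knockdown (adjusted p = 0.000444). Dlic, a light intermediate chain gene, and cpb, a capping protein gene, rose by 0.52 and 0.85 after E2F1 knockdown (adjusted p = 3.41e-07 and 6.97e-09). The spindle-associated list was mixed, with 6 falls and 5 rises after E2F1 and 2 falls after Myb knockdown, where 31.3% and 22.9% of all probe sets fell and rose after E2F1 and 3.43% fell after Myb knockdown. In it feo, which bundles the central spindle, fell by 0.47 after Myb and by 0.56 after E2F1 knockdown (adjusted p = 3.86e-06 and 9.53e-09). The tubulin-binding stathmin gene stai fell by 2.14 after Myb knockdown (adjusted p = 2.69e-16), to a mean of 4.77 in the background range. It also fell by 1.49 after Mip120 and by 1.15 after Mip130 knockdown (adjusted p = 8.77e-13 and 3.34e-10), to means of 5.43 and 5.76 in that range. It rose by 1.93 after L(3)MBT and by 0.42 after Mip40 knockdown (adjusted p = 6.64e-16 and 0.00391). Smaller rises were called after E2F1 (0.29, adjusted p = 0.0162) and E2F2 knockdown (0.28, adjusted p = 0.0446). No change of stai was called after Lin-52 (0.25) or RBFs knockdown (-0.01). Mink fell by 0.51 after E2F1 knockdown (adjusted p = 1.51e-07) and had -0.17 after Myb knockdown (adjusted p = 0.203).

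The augmin and gamma-tubulin list, whose proteins nucleate microtubules within the spindle, had 12 tested genes. Of these 8 fell after E2F1 (31.3% of all probe sets), 5 after Myb (3.43%), 6 after Lin-52 (10.7%), 4 after Mip120 (10.5%) and 2 after Mip40 knockdown (8.92%), with 0 rises in each. After Mip130 knockdown 3 fell and 1 rose (5.98% and 5.02%), after E2F2 4 and 1 (9.12% and 16.4%), after RBFs 3 and 1 (11.9% and 11.5%), and after L(3)MBT knockdown 2 fell and 5 rose (34.6% and 38.9%). The augmin genes msd1 and msd5 fell in 8 of 9 knockdowns, all but L(3)MBT, by 1.35 and 1.10 after E2F1 and by 0.67 and 0.87 after Myb knockdown (adjusted p 1.96e-13 to 5.16e-06). The augmin gene dgt2 fell by 0.35 after E2F1 and rose by 0.34 after L(3)MBT knockdown (adjusted p = 0.00013 and 0.000137). Of 13 tubulin and tubulin folding genes 6 fell and 1 rose after E2F1 knockdown (31.3% and 22.9% of all probe sets). After Myb knockdown 0 were called (3.43% fell and 2.36% rose over all probe sets), with 1 higher at an unadjusted p below 0.05. After Mip120 knockdown 4 fell and 0 rose (10.5% and 8.67%). After Mip130 knockdown 4 fell and 0 rose (5.98% and 5.02%), with 1 call after quantile normalization. After Lin-52 4 fell and 2 rose (10.7% and 8.74%), after RBFs 4 and 1 (11.9% and 11.5%), and after Mip40 knockdown 2 and 1 (8.92% and 6.99%). After E2F2 1 and 1 did (9.12% and 16.4%), and after L(3)MBT knockdown 3 and 5 (34.6% and 38.9%). The rise after E2F1 knockdown was that of betaTub60D, 1.79 (adjusted p = 3.32e-19). In the same knockdown alphaTub84D fell by 0.79 (adjusted p = 6.92e-12) and alphaTub85E fell by 0.17 (adjusted p = 0.00855). A fall of alphaTub84D was called in 7 of 9 knockdowns, all but Myb and L(3)MBT.

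Markers of the cell cycle moved beside these genes, and their part in the results was not tested. Of 17 other mitosis genes 17 fell after E2F1 knockdown (median -0.63), where 31.3% of all probe sets fell. After Mip40, Mip120, Mip130, Lin-52 and Myb knockdown 3, 7, 9, 6 and 7 fell. The shares of all probe sets that fell there were 8.92, 10.5, 5.98, 10.7 and 3.43%. There were 0 rises in all 6, where 22.9% of all probe sets rose after E2F1 knockdown and 2.36 to 8.74% after the others. Among the genes that fell, scra did so by 1.02 after E2F1 and by 0.51 after Myb knockdown (adjusted p = 1.14e-14 and 5.79e-07). The checkpoint gene mad2 fell by 0.48 and 0.42 (adjusted p = 3.73e-06 and 0.000356), and the condensin gene barr by 0.46 and 0.24 (adjusted p = 1.6e-06 and 0.0341). Of 8 kinetochore genes 8 fell after E2F1 (median -0.67) and 2 after Myb knockdown, Nnf1a by 0.83 and Kmn1 by 0.65 (adjusted p = 2.49e-09 and 1.29e-06). After Lin-52 knockdown 3 fell, with Nnf1a by 0.96 and Kmn1 by 0.84 (adjusted p = 6.07e-11 and 5.5e-09). After Mip120, Mip130, Mip40 and RBFs knockdown 3, 2, 1 and 2 fell (11.9% of all probe sets for RBFs), with 0 rises. After E2F2 0 fell and 1 rose (9.12% and 16.4%), and after L(3)MBT knockdown 1 fell and 3 rose (34.6% and 38.9%). Cenp-C fell by 1.10 after E2F1 knockdown (adjusted p = 2.48e-12). In the S phase list all 13 tested genes fell after E2F1 knockdown (median -1.40), with -1.65 for dup, a licensing factor, and -1.40 for the helicase subunit dpa (adjusted p = 7.94e-17 and 1.5e-18). After Myb knockdown 0 fell and 7 rose (median 0.26), where 3.43% of all probe sets fell and 2.36% rose. Among the 7 was the cyclin gene CycE, by 0.60 (adjusted p = 0.0103).

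After L(3)MBT knockdown 12 of the 17 other mitosis genes and 10 of the 13 S phase genes rose, with medians of 0.27 and 0.37, where 38.9% of all probe sets rose and 34.6% fell. Of the same lists 0 and 1 fell, the latter being Orc2. Median centring moves the median of all probe sets in this knockdown from 0.02 to 0.12, and rises are read against that shift. After E2F2 knockdown 3 of 17 and 2 of 13 rose and 0 fell, near the 16.4% of all probe sets that rose.

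**Figure D4:**
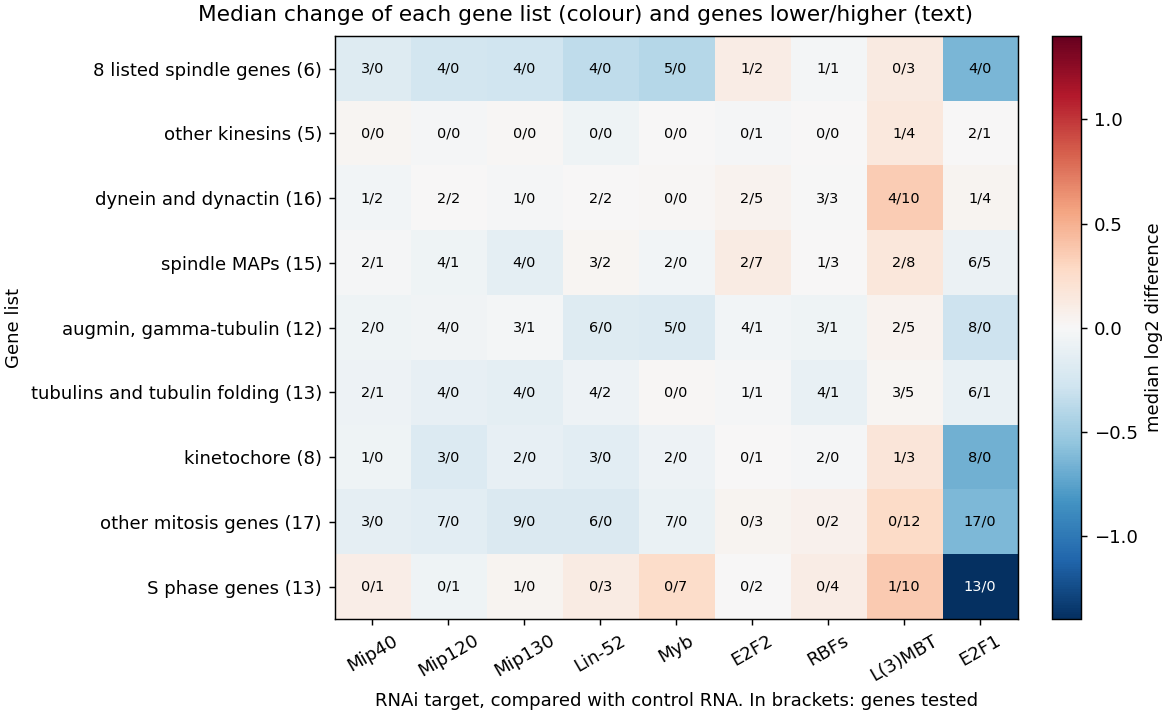
Median log2 difference from control (colour) and numbers of genes lower and higher at an adjusted p below 0.05 (text, lower/higher) for the 8 listed spindle genes and 8 further gene lists (rows, genes tested in brackets) in the 9 knockdowns (columns). The E2F1 column is lowest for S phase genes (-1.40), kinetochore genes (-0.67) and the listed spindle genes (-0.64), and in the Myb column the listed spindle genes are lower (-0.40) while S phase genes are higher (0.26).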

How the data were processed

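Total RNA (10 micrograms per sample, per the labels' protocols) was hybridised to Affymetrix fly arrays. The values the authors deposited, 1 for each probe set on each array, span 1.949 to 13.597 and are read here as log2 signals from that range; the submitters' processing notes name GCOS 1.2.0, and normalization and summarization are not given in the sources used here. The deposited values were used as they are. Of 14010 probe sets, 44 controls were left out and 7794 were tested, those whose signal passed the median of its own array on 3 or more arrays. Array annotation from GEO's platform gave 12442 probe sets 1 gene each (12393 matched the reference table, which updated names) and 327 several. No 2 arrays were identical.

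Group means of 30 arrays were fitted in limma 3.58.1 (R 4.3.3, lmFit and eBayes with intensity trend), two-sided, with Benjamini-Hochberg adjustment within each of 9 contrasts with control and 8 direct ones and a threshold of 0.05. Tables and figures used Python 3.11.15, pandas 2.3.3, numpy 2.4.6 and matplotlib 3.10.9. The fit was tested on simulated data. Number of arrays limits the precision, and no array dates were given.

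Members, lists and contrasts were chosen with earlier results of these data known. Beside the members, up to 3 genes per list were named, those called in the most knockdowns, and for each member the 3 genes of highest correlation over group means. Replicate numbers in the titles were checked as pairs: deviations from group means correlated above 0.1 in every pair for Myb and control only (r 0.21 to 0.58), 1 of 17 contrasts. A block for the number kept all 5 Myb calls. Alternatives were 3 normalizations, 2 filters, array weights, no trend, 6 arrays alone, the block, leaving out each array, and leaving out the L(3)MBT group.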

Additional observations from a re-analysis of the deposited data

How the results depend on the processing

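Of the 6 genes in 17 contrasts, all 102 differences kept their side of the threshold without an intensity trend, 100 did with either filter, 101 with the replicate block, 90 with array weights (12 gained a call), 92 with the 6 arrays alone, 95 with quantile normalization, 95 with median centring and 96 with cyclic loess normalization. Without the L(3)MBT arrays 88 of 90 did. Among differences called in the report 1 reversed, Klp10A after L(3)MBT knockdown with quantile normalization (-0.01); some uncalled differences near 0 changed sign. Over 612 differences of these genes from fits with 1 array left out, 46 calls were lost, 7 gained and 0 called differences reversed. The cause was not tested.

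Numbers of called spindle genes moved as follows, with ranges over single arrays left out. They were 1 to 4 for Mip40 (3 in the report), 3 to 5 for Myb (5; 3 with the 6 arrays alone) and 1 to 2 for RBFs (2). L(3)MBT had 3 and 5 with median centring. Among direct contrasts RBFs against E2F2 had 2, 1 to 2 over single arrays, and 1 with no filter or without the L(3)MBT arrays. L(3)MBT against E2F2 had 4 and 2 to 4. Lin-52 against Myb had 2, 1 to 2, and 1 with the 6 arrays alone. Mip120 against Mip130 had 0, and 2 with array weights. Mip40 against Mip130 had 1, 0 on leaving out any array, with median centring, no filter, the replicate block or no L(3)MBT arrays, and 2 with the 6 arrays alone.

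Array weights raised the count of all called probe sets from 1240 to 2515 (Mip40), 1498 to 2674 (Mip120), 857 to 1955 (Mip130), 1513 to 2302 (Lin-52), 451 to 766 (Myb), 1941 to 3010 (RBFs against E2F2), 970 to 2243 (Myb against Mip130), 183 to 1024 (Mip120 against Mip130), 794 to 1540 (Mip40 against Mip130) and 1338 to 2527 (Lin-52 against Myb). With 6 arrays alone counts were 639 (Lin-52), 200 (Myb), 563 (Mip120 against Mip130), 1216 (Mip40 against Mip130) and 389 (Lin-52 against Myb). With more or fewer probe sets tested, L(3)MBT had 9542 with no filter and 3745 at the 70th percentile, against 5723, and L(3)MBT against E2F2 had 7953 with no filter, against 5104. Over single arrays left out, counts ran from 566 to 1169 (Mip130), 1185 to 1954 (RBFs against E2F2), 76 to 150 (Mip120 against Mip130) and 823 to 1759 (Lin-52 against Myb). A replicate block within the 6 arrays of Myb and control, chosen after seeing the data, gave 543 probe sets and the same number of spindle genes, 5; in the other contrasts the samples share only a number, and the block over all arrays ended 1 call, that of Klp61F in Mip40 against Mip130 (adjusted p = 0.052).

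The share of calls that were higher was 64.2% for E2F2 and 50.5% after quantile normalization or 76.9% after centring. It was 52.9 and 65.2% (centring) for L(3)MBT, 42.2 and 53.1% (cyclic loess) for E2F1, 58.9 and 47.6% (cyclic loess) for E2F2 against E2F1, 42.9 and 53.0% (quantile) for Myb against E2F2, 52.1 and 63.0% (centring) for L(3)MBT against E2F2, and 38.1, 50 (quantile) and 26.3% (centring) for RBFs against E2F2. With quantile normalization called genes numbered 3 instead of 5 (other kinesins, L(3)MBT), 1 instead of 4 (tubulins, Mip130), 6 instead of 2 (tubulins, E2F2), 5 instead of 3 (other mitosis genes, E2F2) and 4 instead of 2 (S phase genes, E2F2). No gene had a further probe set to try.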
